A study of Mus musculus with 15 samples.

Results

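The 10 mouse CC chemokine genes described here are Ccl2, Ccl7, Ccl8, Ccl3, Ccl4, Ccl5, Ccl6, Ccl9, Ccl17 and Ccl20, found by GENCODE symbol among the 54838 Ensembl genes of every library. They were followed through 15 RNA-seq libraries in 5 groups of 3. 4T1 cells are a mammary carcinoma line of BALB/c mice that colonises the lung after tail vein injection. They were taken from BALB/c lungs 7 days after injection (4T1 in vivo) or from culture in DMEM with fetal bovine serum (4T1 in vitro). Lung epithelial cells, titled by the surface protein EpCAM, were sorted 7 days after 800000 labelling 4T1 cells, which mark the cells next to them, had been given by tail vein. They came from the labelled metastatic niche with the treatment label shSox9, from the niche without it, or from distal lung, and the niche and distal libraries carry the label control. The lungs of all 3 epithelial groups thus held 4T1 cells, each epithelial replicate was a pool of 5 lungs, and no lung without tumour cells was measured. The sources used here do not say which cells carried the hairpin.

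CC chemokines are small secreted proteins with adjacent cysteines that guide leukocytes through G protein-coupled receptors. Ccl2, Ccl7 and Ccl8 belong to the monocyte chemoattractant group, and Ccl2 and Ccl7 draw monocytes out of bone marrow and blood through the receptor CCR2. Ccl3, Ccl4 and Ccl5 are inflammatory chemokines that attract monocytes and T cells, Ccl3 and Ccl5 in part through CCR1, while Ccl6 and Ccl9 are rodent ligands of CCR1. Ccl17 attracts T cells through CCR4, and Ccl20, a product of inflamed epithelium, attracts cells that carry CCR6. In lung metastasis CCR2 ligands are known for the recruitment of inflammatory monocytes that become macrophages.

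Libraries held 15907316 to 30421705 expected counts, and levels are given as TPM, a length-scaled unit that allows different genes to be set side by side. The sorted epithelium held transcripts of other cells. The pan-leukocyte gene Ptprc stood at 14.0 to 31.7 TPM in niche shSox9 libraries, 76.0 to 91.8 in niche libraries and 18.8 to 35.6 in distal libraries, with 1.89 to 6.48 in 4T1 cells in vivo and at most 0.12 in vitro. Epcam itself was at 21.7 to 32.5 TPM in niche shSox9 libraries, 27.8 to 68.7 in niche libraries and 57.9 to 65.1 in distal libraries. Transcripts of 10 genes that 4T1 cells express and distal epithelium nearly lacks stood at 18.4% ± 8.51 of their in vivo level in niche shSox9 libraries, 18.9% ± 5.48 in niche libraries and 0.827% ± 0.188 in distal libraries (SD, n = 3 each). Low distal counts were part of the choice of these 10 genes. Sox9 itself was at 13.3 to 33.8 TPM in the libraries labelled shSox9 and at 12.4 to 24.2 TPM in niche libraries. The libraries as a whole thus did not hold less Sox9 RNA under the label. Sox9 was at 97.9 to 149.6 TPM in 4T1 cells in vivo and at 1.31 to 1.68 TPM in distal libraries. The part of 4T1 transcripts in this Sox9 RNA was not tested, so the Sox9 level of the sorted epithelial cells themselves is not known. No direction given for the label is a measured effect of lower Sox9. In bulk libraries fewer cells of a type and less RNA per cell cannot be told apart.

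On GRCm38, 8 of the 10 genes lie on chromosome 11 in 2 clusters. Ccl2 (82035571 to 82037453), Ccl7 (82045712 to 82047525) and Ccl8 (82115185 to 82116799) are on the plus strand, with the eosinophil attractant Ccl11 and the monocyte attractant Ccl12 between Ccl7 and Ccl8. The second cluster starts 1220.1 kb beyond Ccl1 and holds Ccl5 (83525778 to 83530518), Ccl9 (83572919 to 83578636), Ccl6 (83587882 to 83593087) and Ccl3 (83647844 to 83649355) on the minus strand and Ccl4 (83662584 to 83664683) on the plus strand. Ccl6 and Ccl9 are 9.2 kb apart, and Ccl3 and Ccl4 13.2 kb. Ccl17 lies on chromosome 8 (94810453 to 94812036, plus strand) and Ccl20 on chromosome 1 (83116766 to 83119167, plus strand). All 10 are protein-coding, and each of their 150 expected counts was a whole number, so none carried a fraction from shared reads.

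RefSeq promoter windows on GRCm38.p6 were at hand for 6 of the 10 genes, Ccl3, Ccl6, Ccl8, Ccl9, Ccl17 and Ccl20, and the 250 bases before the start site were searched on both strands. The motifs were the NF-kB site known as the kB consensus, TGANTCA for AP-1, TTC and GAA 4 bases apart for STAT6, GAAA and GAAA 2 bases apart for interferon regulatory factors and the TATA box TATAAA. They occur in 3.90%, 6.75%, 5.85%, 2.98% and 12.4% of the 32851 windows of that length, in that order. The windows printed are those of the 4 genes with any match, and capitals mark the matches. Ccl8, which had the largest fold change of the 10 between niche and distal epithelium, has a TATA box at -32 to -27 from the start site. Ccl9 has a kB match at -35 to -26, an AP-1 match at -53 to -47 and TATAAA matches at -224 to -219 and at -94 to -87. The match at -224 to -219 is on the opposite strand only, and at -94 to -87 matches on opposite strands overlap.
Ccl8, chr11:82114935-82115184, plus strand: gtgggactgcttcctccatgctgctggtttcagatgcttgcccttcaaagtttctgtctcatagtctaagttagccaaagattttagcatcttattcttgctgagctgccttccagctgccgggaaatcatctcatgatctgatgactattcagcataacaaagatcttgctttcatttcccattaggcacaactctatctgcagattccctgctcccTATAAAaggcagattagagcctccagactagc
Ccl9, chr11:83578637-83578886, minus strand: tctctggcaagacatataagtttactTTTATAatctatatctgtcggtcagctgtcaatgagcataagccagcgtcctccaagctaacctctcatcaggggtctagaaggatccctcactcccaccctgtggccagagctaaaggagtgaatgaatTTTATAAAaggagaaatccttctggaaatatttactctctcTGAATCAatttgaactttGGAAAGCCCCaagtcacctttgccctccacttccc
Ccl17, chr8:94810203-94810452, plus strand: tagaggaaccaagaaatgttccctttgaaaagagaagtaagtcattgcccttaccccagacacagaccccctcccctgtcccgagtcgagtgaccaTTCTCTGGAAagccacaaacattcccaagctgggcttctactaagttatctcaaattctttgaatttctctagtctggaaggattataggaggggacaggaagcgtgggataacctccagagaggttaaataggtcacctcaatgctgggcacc
Ccl20, chr1:83116516-83116765, plus strand: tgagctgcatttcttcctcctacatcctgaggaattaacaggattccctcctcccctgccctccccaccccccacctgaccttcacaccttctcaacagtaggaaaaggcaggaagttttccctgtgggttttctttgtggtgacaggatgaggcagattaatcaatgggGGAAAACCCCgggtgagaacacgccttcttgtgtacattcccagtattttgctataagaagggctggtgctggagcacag
Each sequence is written 5′ to 3′ on the strand of the gene. Ccl17 has a STAT6-type match at -154 to -145, which fits both strands. Ccl20 has a kB match at -80 to -71, which like that of Ccl9 is on the opposite strand. Ccl3 and Ccl6 had no match to these letters in the window, which says nothing of the factors themselves.

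The summed level of the 10 genes was highest in niche epithelium. It was 4066, 3869 and 5129.8 TPM in the niche libraries, against 375, 377 and 410.2 TPM in the distal libraries. Niche shSox9 libraries lay between them at 2114, 1857 and 1857 TPM. In 4T1 cells the sum was 538, 593 and 809 TPM in vivo, against 80.9, 130.4 and 147 TPM in vitro. In TPM the 5 ranges did not overlap. The order of the sums was niche, niche shSox9, 4T1 in vivo, distal and 4T1 in vitro. The surfactant gene Sftpc alone took 30.0% to 35.5% of distal TPM, against at most 0.018% in 4T1 cells in vivo. This lowers the TPM of all other genes in distal libraries, and no fit set 4T1 cells against distal epithelium. The order of the 4T1 in vivo and distal sums therefore holds for TPM only.

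The make-up of this sum differed as well. In 4T1 cells most of it was Ccl2 and Ccl5, which together took 78.8% ± 8.39 of the sum in vivo and 94.3% ± 1.57 in vitro (SD, n = 3 each). Ccl7 was rare beside Ccl2 in 4T1 cells, with a TPM ratio of 0.158 ± 0.0141 in vivo and 0.0407 ± 0.0120 in vitro. In epithelium this ratio was 0.606 ± 0.120 in niche shSox9 libraries, 1.22 ± 0.208 in niche libraries and 1.19 ± 0.138 in distal libraries (SD, n = 3 each). Ccl2 took 51.3% ± 10.8 of the sum in niche shSox9 libraries, 23.2% ± 1.38 in niche libraries and 19.4% ± 3.17 in distal libraries, while Ccl8 took 3.72% ± 1.59, 18.3% ± 3.32 and 5.17% ± 1.08 in the same order of groups.

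**Figure D1:**
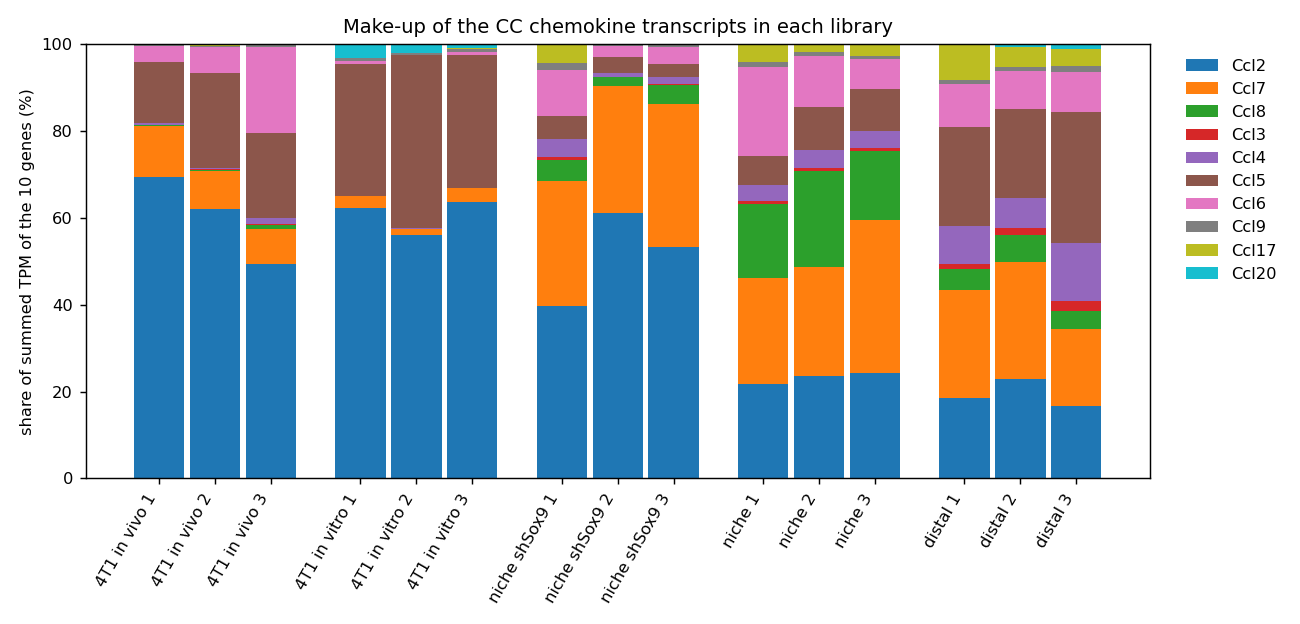
Share of the summed TPM of the 10 genes (y axis, percent) taken by each gene in each of the 15 libraries (x axis, labelled by group and replicate). Ccl2 and Ccl5 fill most of the bars of 4T1 cells, Ccl2 and Ccl7 most of the niche shSox9 bars, and Ccl8 is widest in the niche bars.

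Within the family, 9 genes had their highest mean in niche epithelium, and Ccl20 had its highest in distal epithelium. Ccl7 led in the niche with a mean of 1257 TPM, followed by Ccl2 with 1012, Ccl8 with 786, Ccl6 with 543, Ccl5 with 386, Ccl4 with 168, Ccl17 with 128, Ccl9 with 39.8, Ccl3 with 33.1 and Ccl20 with 1.30. In TPM the order of groups was not the same for every gene. For Ccl2 the niche and niche shSox9 libraries overlapped at the top, as did the distal and cultured 4T1 libraries at the bottom. Sftpc lowers distal TPM and no fit set cultured 4T1 cells against distal epithelium, so the overlap at the bottom holds for TPM only. For Ccl3, Ccl4, Ccl5, Ccl6, Ccl7 and Ccl8 the niche libraries lay above all others, and cultured 4T1 cells lay below all others. For Ccl20 every neighbouring pair in the order overlapped.

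**Figure D2:**
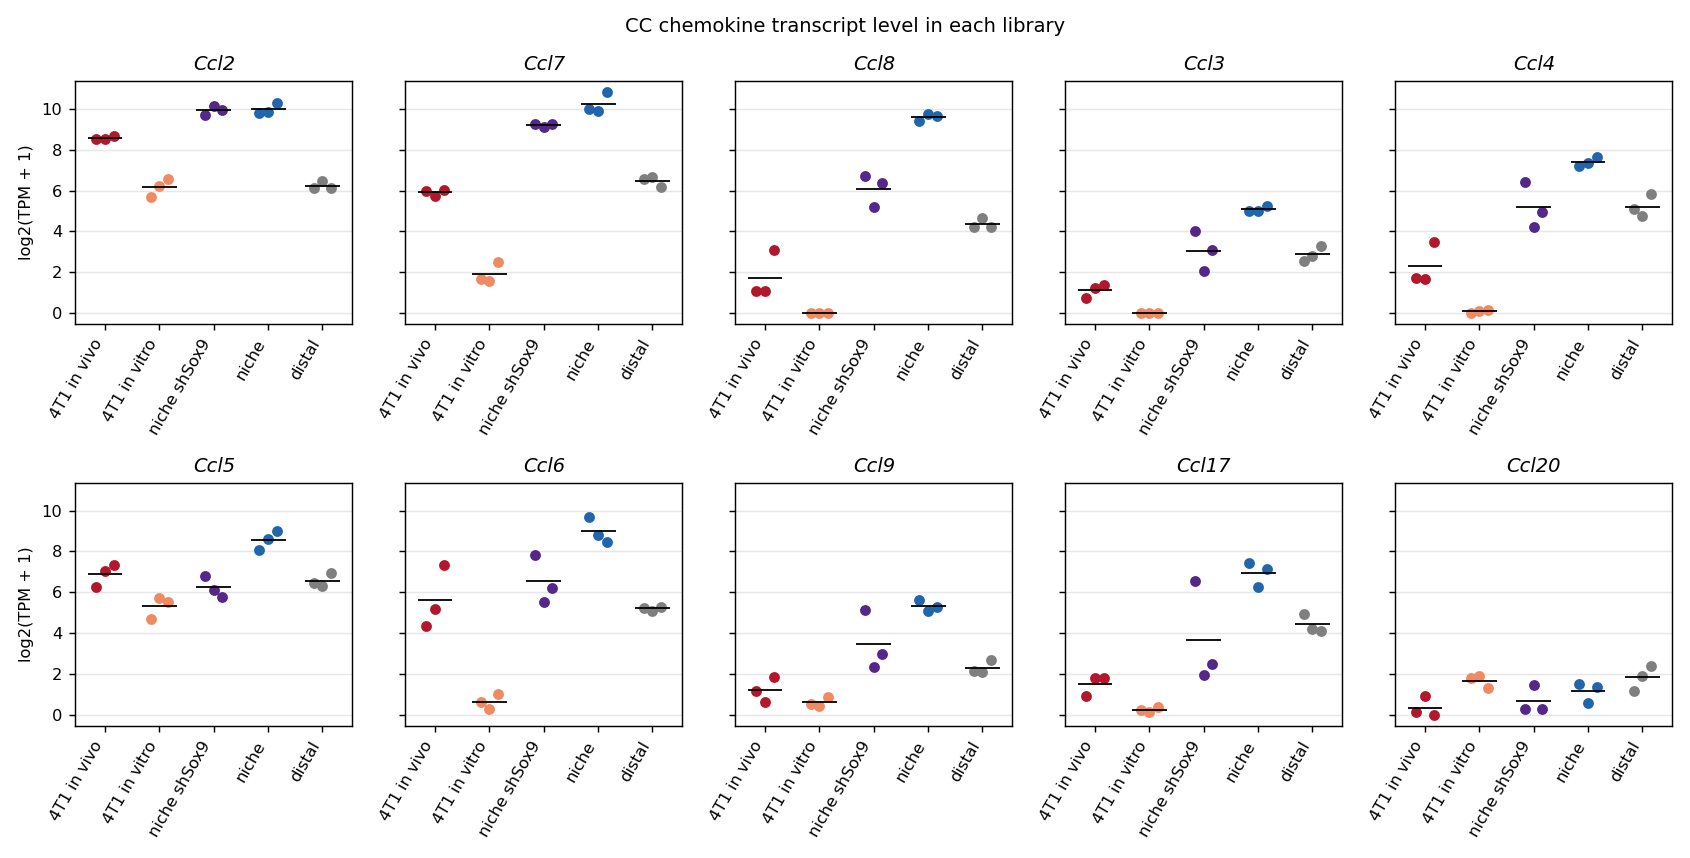
Level of each gene as log2(TPM + 1) (y axis, common to all panels) in each library (points) by group (x axis), with black lines at the group means. Ccl8 spans the panel from 0 TPM in cultured 4T1 cells to 855 TPM in the niche, whereas Ccl20 stays at 4.27 TPM or less in every library.

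4T1 cells recovered from lung held more transcripts of most of these chemokines than cultured 4T1 cells. Ccl7, Ccl6, Ccl4, Ccl2 and Ccl5 rose, Ccl20 fell, and Ccl9 did not pass the test. Of the 7 genes with enough counts to be tested, 5 were called higher and 1 lower by edgeR's quasi-likelihood test at an adjusted p below 0.05. Over all 14022 genes tested, 51.0% were called, 27.0% higher and 24.0% lower. The median log2 fold change of the 7 was 2.40, against 0.01 over all genes tested.

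Ccl2, the principal CCR2 ligand, was at 373, 367 and 399 TPM in vivo, against 50.3, 73.0 and 93.7 TPM in vitro. The groups did not overlap (log2 fold change 2.40, SE 0.21, edgeR adjusted p = 2.4e-05). Ccl7, its neighbour 8.3 kb away, was at 62.9, 52.1 and 65.1 TPM in vivo, against 2.24, 1.99 and 4.72 TPM in vitro. Every in vivo library lay far above every cultured one (log2 fold change 4.28, SE 0.30, edgeR adjusted p = 6.3e-06). Ccl8 had 6, 6 and 41 counts in vivo and 0 in every cultured library, too few for the test. Pooled over the in vivo group, its 53 counts were at least 23.5-fold above a floor of 3 counts over the cultured group. Most of these counts came from the third in vivo library, so the bound is for the pooled group and not for each library.

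Ccl5 had the second highest mean of these genes in 4T1 cells, although Ccl6 was level with it in the third in vivo library. Ccl5 was at 76.0, 129.6 and 159 TPM in vivo, against 24.7, 52.0 and 45.3 TPM in vitro. Its groups did not overlap (log2 fold change 1.54, SE 0.32, edgeR adjusted p = 0.0032). Ccl4 had 17, 16 and 76 counts in vivo, against 0, 1 and 1 in vitro. That is a ratio of 72.6 (95% counting interval 19.6 to 607), with a fitted log2 fold change of 5.83 (SE 1.01, edgeR adjusted p = 0.0011). Ccl3 had 6, 12 and 14 counts in vivo and 0 in every cultured library, so pooled over the group it was at least 14.2-fold higher against the same floor.

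Ccl6 had the largest fitted rise of the 7. It was at 19.6, 35.3 and 160.3 TPM in vivo, against 0.53, 0.22 and 1.00 TPM in vitro, a log2 fold change of 7.45 (SE 1.04, edgeR adjusted p = 3.4e-04). The third in vivo library stood well above the other two, and without it the log2 fold change of Ccl6 was 5.99 and that of Ccl4 4.64. Without the third cultured library that of Ccl6 was 8.13. Ccl9, the other CCR1 ligand of rodents, overlapped between groups at 1.21, 0.53 and 2.60 TPM in vivo, against 0.47, 0.33 and 0.82 TPM in vitro (log2 fold change 1.73, SE 0.68, edgeR adjusted p = 0.058). Its log2 fold change was 0.58 without the third in vivo library (edgeR adjusted p = 0.40) and 2.15 without the first (edgeR adjusted p = 0.023), and it was called higher by DESeq2 (adjusted p = 0.031) and with no low-count filter (edgeR adjusted p = 0.0038). Ccl17 had 5, 14 and 14 counts in vivo, against 1, 1 and 2 in vitro, and was not tested. Ccl20 went the other way, with 1, 8 and 0 counts in vivo, against 24, 38 and 17 in vitro. It was called lower (log2 fold change -2.78, SE 0.76, edgeR adjusted p = 0.012). Without the first in vivo library its adjusted p was 0.054, and without the second its log2 fold change was -5.11.

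Myeloid markers moved with these genes. Of 15 macrophage and monocyte markers, 11 could be tested, 9 were higher in vivo and none lower, and their summed level was 93.1, 165 and 685 TPM in vivo, against 11.2 to 17.1 TPM in vitro. The third in vivo library again stood highest, mainly through Lyz2, the lysozyme of myeloid and alveolar type 2 cells, at 581 TPM. C1qa, C1qb, C1qc, Fcgr1, Ms4a7, Fcgr3, Marco and Siglecf had 0 counts in every cultured library, and C1qb stood at 2.63 to 4.83 TPM in vivo. All 3 neutrophil markers tested were higher too, with a summed level of 80.0 to 102 TPM in vivo, against 8.47 to 18.3 TPM in vitro. Markers of dendritic cells (4 of 4 tested), endothelium (6 of 6), fibroblasts (5 of 5) and alveolar type 2 cells (6 of 8) were higher in vivo as well. The part of such cells in the rise of the chemokines was not tested. Transcription factors and feedback genes of chemokine induction also rose, 12 of 14 higher and none lower. They included the NF-kB- and stress-induced RNA-decay factor Zfp36 (log2 fold change 4.81, SE 0.17), the phosphatase Dusp1 (3.62, SE 0.17) and the interferon regulatory factor Irf1 (3.36, SE 0.16). The edgeR adjusted p of these 3 was at most 7.9e-07. Il1r1, the interleukin-1 receptor, was higher (log2 fold change 1.94, SE 0.13, edgeR adjusted p = 6.5e-06), whereas its ligand Il1a had a log2 fold change of -1.29 (SE 0.36, edgeR adjusted p = 0.014).

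Niche epithelium held more of 8 of the 10 chemokines than distal epithelium, by 2.69-fold for Ccl5 up to 26.3-fold for Ccl8. All 10 were tested, 8 were called higher and none lower, where edgeR called 54.3% of all 17640 genes tested, 28.5% higher and 25.8% lower. At an unadjusted p below 0.05, 9 were higher and 1 lower, beside 31.1% of all genes higher and 28.4% lower. The median log2 fold change of the 10 was 2.34, against 0.02 over all genes. The fold changes come from counts scaled between libraries. TPM ratios against distal libraries are larger, because the surfactant gene Sftpc alone took 30.0% to 35.5% of distal TPM.

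Ccl8 had the largest difference of the 10. It was at 688, 855 and 815 TPM in niche libraries, against 17.9, 24.1 and 17.8 TPM in distal libraries (log2 fold change 4.72, SE 0.33, edgeR adjusted p = 8.1e-07). Ccl7 was at 1001, 966 and 1805 TPM in niche libraries, against 93.0, 101 and 72.3 TPM in distal libraries (log2 fold change 3.25, SE 0.25, edgeR adjusted p = 1.6e-06). Ccl2 was at 879, 913 and 1245 TPM in niche libraries, against 69.8, 86.2 and 68.3 TPM in distal libraries (log2 fold change 3.14, SE 0.18, edgeR adjusted p = 2.2e-07). For all 3 genes the lowest niche library lay far above the highest distal one. Ccl12, which lies in the same cluster and is a mouse CCR2 ligand, showed the same direction with 723, 761 and 1256 TPM in niche libraries, against 32.9, 29.7 and 45.6 TPM in distal libraries (log2 fold change 4.07, SE 0.53).

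The rodent CCR1 ligands were higher as well. Ccl6 was at 829, 450.5 and 349.9 TPM in niche libraries, against 37.0, 33.1 and 38.3 TPM in distal libraries, a log2 fold change of 3.30 (SE 0.53, edgeR adjusted p = 3.0e-04). Ccl9 was at 47.9, 33.3 and 38.1 TPM in niche libraries, against 3.47, 3.24 and 5.47 TPM in distal libraries, a log2 fold change of 2.68 (SE 0.62, edgeR adjusted p = 0.0036). Neither gene overlapped between these groups, although Ccl6 varied more than 2-fold among niche libraries.

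Ccl3, Ccl4 and Ccl5 differed less. Ccl3 was at 31.4, 31.0 and 36.8 TPM in niche libraries, against 4.86, 6.01 and 8.67 TPM in distal libraries (log2 fold change 1.76, SE 0.42, edgeR adjusted p = 0.0041). Ccl4 was at 147, 159 and 196 TPM in niche libraries, against 33.0, 25.6 and 55.1 TPM in distal libraries (log2 fold change 1.55, SE 0.46, edgeR adjusted p = 0.013). Its adjusted p was 0.058 without the second distal library. Ccl5 was at 271, 385 and 502 TPM in niche libraries, against 85.3, 77.4 and 124 TPM in distal libraries (log2 fold change 1.43, SE 0.28, edgeR adjusted p = 0.0012).

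Ccl17, the CCR4 ligand, did not overlap between the groups but did not pass the test. It was at 169.7, 75.2 and 141 TPM in niche libraries, against 29.8, 17.5 and 16.3 TPM in distal libraries (log2 fold change 1.99, SE 0.90, edgeR adjusted p = 0.082). In a fit of these 6 libraries alone, with no low-count filter and in limma on log2(TPM + 1), its adjusted p was 5.9e-04, 2.2e-04 and 0.033. Ccl20 was close to the limit of detection, at 1.82, 0.51 and 1.56 TPM in niche libraries, against 1.26, 2.80 and 4.27 TPM in distal libraries (log2 fold change -1.64, SE 0.73, edgeR adjusted p = 0.080). Its groups overlapped in TPM but not in scaled counts. Its edgeR adjusted p was 0.026 in the fit of these 6 libraries alone and 0.046 with no low-count filter.

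The list of CC chemokine receptors, which is not limited to receptors of these ligands, moved both ways. Of 8 CC chemokine receptors tested, 3 were higher in the niche and 4 lower, where Ccr1 (log2 fold change 2.48, SE 0.44) and Ccr2 (1.63, SE 0.41) rose and Ccr6, the Ccl20 receptor found on B cells, fell by 2.63 (SE 0.37). The edgeR adjusted p of these 3 was at most 0.0059. Of the 14 transcription factors and feedback genes of chemokine induction 11 were higher and none lower. They were led by Nfkb2 (log2 fold change 1.07, SE 0.14) and Tnfaip3 (1.01, SE 0.11), both products of NF-kB signalling. Of 13 inducing cytokines and receptors tested 9 were higher and 1 lower, with Il1a at 3.09 (SE 0.53), Tnf at 1.67 (SE 0.43) and Il6 at 1.22 (SE 0.21) on the log2 fold change scale.

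Macrophage markers moved with the chemokines, 13 of 15 higher and 1, Lyz2, lower. Without Lyz2 their summed level was 3846 to 4555 TPM in niche libraries, against 252 to 404 TPM in distal libraries, and Marco had 0 counts in the distal libraries. Fibroblast markers were also higher, 5 of 8 with 1 lower, and summed to 3954 to 4499 TPM in niche libraries, against 859 to 1101 TPM in distal libraries. Of 10 dendritic cell markers 4 were higher and none lower, with sums of 194 to 294 TPM in niche libraries, against 61.8 to 77.9 TPM in distal libraries. Other leukocyte lists did not all rise. Of 11 T and NK cell markers tested 1 was higher and 5 lower, and of 6 B cell markers none was higher and 3 were lower. Of 8 neutrophil markers tested 2 were higher and none lower. All 9 alveolar type 2 markers were lower, with sums of 19171 to 24872 TPM in niche libraries, against 330003 to 392639 TPM in distal libraries. The part of these cells in the differences of the chemokines was not tested. An estimate for 4T1 cells takes the 10 panel genes to come from 4T1 cells alone and those cells to keep their sorted in vivo profile, neither of which was tested. On that basis 4T1 cells would supply 4.16% to 10.5% of the Ccl2 measured in niche libraries, 3.30% to 11% of Ccl5, 2.12% to 3.67% of Ccl6 and at most 1.45% of Ccl7 and 0.116% of Ccl8.

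**Figure D3:**
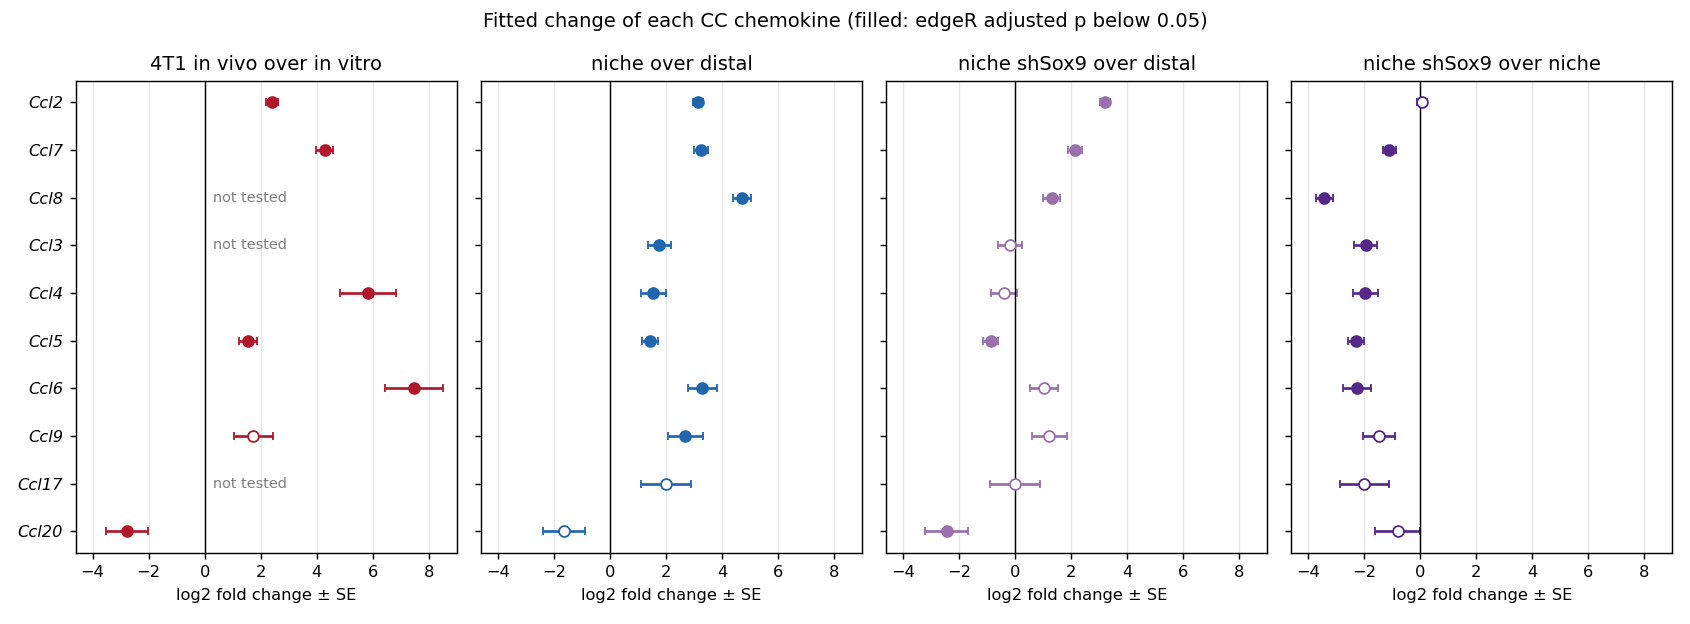
Fitted log2 fold change (x axis, points) with its SE (bars) for each gene (y axis) in 4 comparisons (panels), with filled points at an edgeR adjusted p below 0.05. Niche over distal has 8 filled points above 0 and niche shSox9 over niche has 6 below 0, while Ccl2 sits at 0.07 in niche shSox9 over niche.

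Under the label shSox9, most of these chemokines were lower in niche epithelium, while Ccl2 overlapped between the groups. Ccl8, Ccl5, Ccl6, Ccl4, Ccl3 and Ccl7 fell, by 10.7-fold for Ccl8 and 2.14-fold for Ccl7 at the extremes. Of 10 genes tested, 6 were called lower and none higher, where edgeR called 20.5% of all 17640 genes tested, 9.68% higher and 10.8% lower. The median log2 fold change of the 10 was -1.95, against 0.02 over all genes. At an unadjusted p below 0.05, 8 of the 10 were lower and none higher, beside 16.8% of all genes lower and 16.7% higher. The niche libraries are the same ones that entered the comparison with distal epithelium.

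Ccl2 was at 840.0, 1132 and 989.9 TPM in niche shSox9 libraries, against 879, 913 and 1245 TPM in niche libraries. The groups overlapped (log2 fold change 0.07, SE 0.17, edgeR adjusted p = 0.81), and leaving out any 1 library gave -0.03 to 0.26. Ccl7, its neighbour, was at 606, 546 and 610 TPM in niche shSox9 libraries, against 1001, 966 and 1805 TPM in niche libraries, and did not overlap (log2 fold change -1.10, SE 0.23, edgeR adjusted p = 0.0070). Ccl8 was at 104, 35.5 and 80.3 TPM in niche shSox9 libraries, against 688, 855 and 815 TPM in niche libraries. Its log2 fold change of -3.41 (SE 0.30, edgeR adjusted p = 8.7e-05) was the largest of the family here. Among Ccl2, Ccl7 and Ccl8, which share one gene cluster, the fitted changes ran from 0.07 to -3.41. Ccl12, between them, was at 246, 46.3 and 73.6 TPM in niche shSox9 libraries, against 723, 761 and 1256 TPM in niche libraries (log2 fold change -2.93, SE 0.50, edgeR adjusted p = 0.0021), whereas Ccl11 did not pass the test (log2 fold change -0.40, SE 0.34, edgeR adjusted p = 0.45).

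Ccl3, Ccl4 and Ccl5 were lower in every library under the label. Ccl5 was at 112, 68.5 and 54.3 TPM in niche shSox9 libraries, against 271, 385 and 502 TPM in niche libraries (log2 fold change -2.30, SE 0.29, edgeR adjusted p = 3.9e-04). Ccl4 was at 84.4, 17.4 and 29.6 TPM in niche shSox9 libraries, against 147, 159 and 196 TPM in niche libraries (log2 fold change -1.95, SE 0.46, edgeR adjusted p = 0.012). Ccl3 was at 15, 3.18 and 7.65 TPM in niche shSox9 libraries, against 31.4, 31.0 and 36.8 TPM in niche libraries (log2 fold change -1.94, SE 0.42, edgeR adjusted p = 0.0075). In none of the 3 did the groups overlap. For Ccl4 the adjusted p was 0.054 without the third niche shSox9 library.

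The first niche shSox9 library stood apart for Ccl6, Ccl9 and Ccl17. Ccl6 was at 226, 45.4 and 74.0 TPM in niche shSox9 libraries, against 829, 450.5 and 349.9 TPM in niche libraries, and was called lower (log2 fold change -2.26, SE 0.50, edgeR adjusted p = 0.0088). Ccl9 was at 33.9, 4.12 and 6.96 TPM in niche shSox9 libraries, against 47.9, 33.3 and 38.1 TPM in niche libraries (log2 fold change -1.46, SE 0.58, edgeR adjusted p = 0.099). Ccl17 was at 92.5, 2.89 and 4.69 TPM in niche shSox9 libraries, against 169.7, 75.2 and 141 TPM in niche libraries (log2 fold change -1.99, SE 0.89, edgeR adjusted p = 0.14). In each of these the first library lay nearest to the niche, and for Ccl9 and Ccl17 its TPM fell within the niche range. In scaled counts the groups did not overlap for Ccl9. Without it, Ccl9 had a log2 fold change of -2.80 (edgeR adjusted p = 1.6e-04), Ccl17 one of -5.03 (edgeR adjusted p = 2.2e-05), and 8 of the 10 genes were called lower. Ccl6, Ccl4 and Ccl3 were then at -3.20, -2.78 and -2.55. With all 9 epithelial libraries, Ccl9 and Ccl17 were also called lower with no low-count filter and by limma on log2(TPM + 1), at an adjusted p of at most 0.041. Ccl20 was at 0.23, 1.80 and 0.23 TPM in niche shSox9 libraries, against 1.82, 0.51 and 1.56 TPM in niche libraries, and did not pass the test (log2 fold change -0.80, SE 0.81, edgeR adjusted p = 0.53). Its second niche shSox9 library was the highest of the 3, and without it the log2 fold change was -2.42 (edgeR adjusted p = 0.10).

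**Figure D4:**
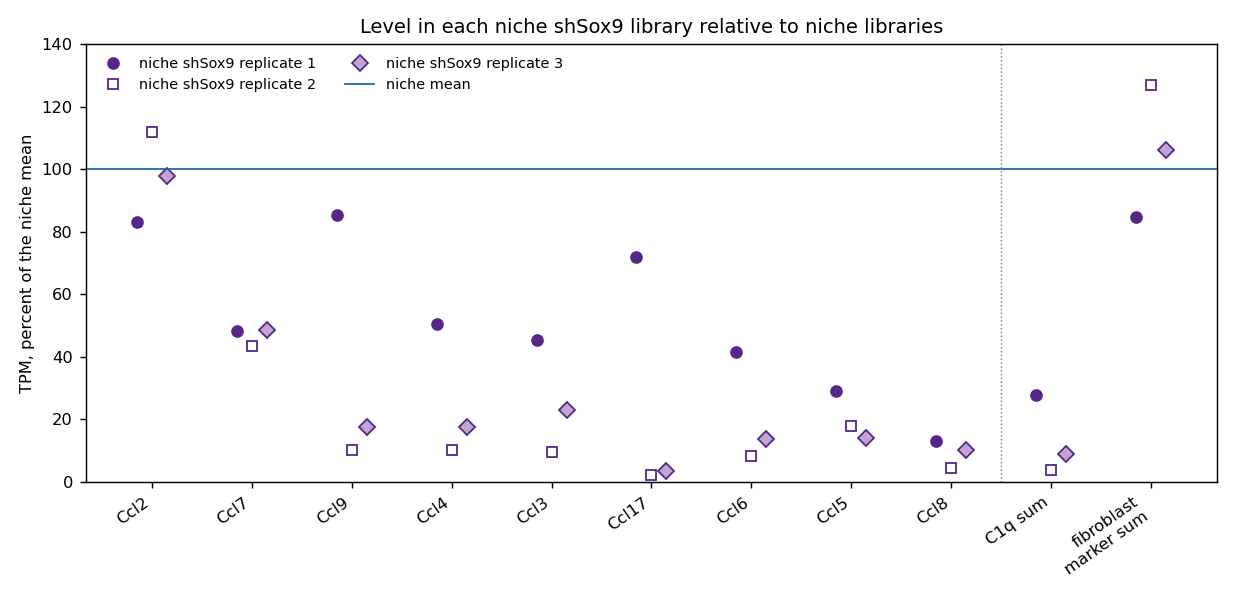
Level in each niche shSox9 library (symbols) as a percent of the mean TPM of the 3 niche libraries (blue line at 100) for 9 chemokines, the summed C1q genes of macrophages and the summed fibroblast markers. Ccl2 lies between 83.0% and 112%, Ccl7 between 43.4% and 48.5%, and Ccl8 between 4.52% and 13.3%, while the first library is highest for Ccl9, Ccl4, Ccl3, Ccl17, Ccl6, Ccl5, Ccl8 and C1q.

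Macrophage markers were lower in the same libraries, 13 of 15 with none higher. Without Lyz2 their summed level was 1230.4, 199.98 and 396 TPM in niche shSox9 libraries, against 3846, 3871 and 4555 TPM in niche libraries. The first niche shSox9 library again stood highest. C1qa, C1qb and C1qc together were at 3.75% to 27.9% of the niche mean, beside 4.52% to 13.3% for Ccl8, 8.35% to 41.6% for Ccl6, 14.1% to 28.9% for Ccl5, 43.4% to 48.5% for Ccl7 and 83.0% to 112% for Ccl2. Of 10 dendritic cell markers 6 were lower and none higher, with sums of 41.3 to 135 TPM in niche shSox9 libraries, against 194 to 294 TPM in niche libraries. Fibroblast markers stood at 84.7% to 127% of the niche mean, with 2 of 8 called higher and none lower. Alveolar type 2 markers were higher, 9 of 9, with sums of 68743.5 to 116365 TPM in niche shSox9 libraries, against 19171 to 24872 TPM in niche libraries. The part of these cells in the lower chemokine levels was not tested. The 4T1 panel was at 27.7%, 16.4% and 11% of its in vivo level in niche shSox9 libraries, against 23.0%, 21.1% and 12.7% in niche libraries, and these overlap. On the same untested basis 4T1 cells would supply 25.3% to 31.8% of the Ccl5 and 9.24% to 29.9% of the Ccl6 measured in niche shSox9 libraries, against 3.30% to 11% and 2.12% to 3.67% in niche libraries.

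CC chemokine receptors, again over the whole list, fell too, 3 of 8 tested with none higher. Ccr2 fell by 2.67 (SE 0.43, edgeR adjusted p = 0.0015) and Ccr1 by 1.94 (SE 0.43, edgeR adjusted p = 0.0088) on the log2 scale. The transcription factors and feedback genes of chemokine induction did not share one direction, as 5 of 14 were higher and 2 lower. Nfkbiz, an NF-kB cofactor, rose (log2 fold change 1.29, SE 0.16, edgeR adjusted p = 3.2e-04), as did Tnfaip3 (0.91, SE 0.11, edgeR adjusted p = 3.1e-04). Among inducing cytokines Tnf fell by 2.65 (SE 0.45, edgeR adjusted p = 0.0020) and Il1a by 2.35 (SE 0.50, edgeR adjusted p = 0.0070), whereas Il6 was at 110.2, 155 and 176 TPM in niche shSox9 libraries, against 67.4, 76.1 and 101 TPM in niche libraries (log2 fold change 0.82, SE 0.21, edgeR adjusted p = 0.018).

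Set against distal epithelium, the niche shSox9 libraries had more Ccl2, Ccl7 and Ccl8. The distal libraries are those that entered the comparison with niche epithelium. Of the 10 genes 3 were called higher and 2 lower, where edgeR called 43.8% of all 17640 genes tested, 21.7% higher and 22.0% lower. Ccl2 was higher by 9.23-fold (log2 fold change 3.21, SE 0.18, edgeR adjusted p = 7.8e-07), Ccl7 by 4.44-fold (2.15, SE 0.24, edgeR adjusted p = 3.9e-05) and Ccl8 by 2.47-fold (1.31, SE 0.31, edgeR adjusted p = 0.0054). None of the 3 overlapped between niche shSox9 and distal libraries. Ccl5 had a log2 fold change of -0.87 (SE 0.28, edgeR adjusted p = 0.027) in scaled counts and Ccl20 one of -2.44 (SE 0.78, edgeR adjusted p = 0.025), although the TPM of both genes overlapped. Both of these calls were lost in 4 of the 6 fits that left out 1 library, at an adjusted p of up to 0.12 for Ccl5 and 0.099 for Ccl20, whose log2 fold change was -4.05 without the second niche shSox9 library. By limma on log2(TPM + 1) Ccl5 was at -0.32 (adjusted p = 0.35).

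Ccl3, Ccl4, Ccl6, Ccl9 and Ccl17 did not pass this test, with log2 fold changes of -0.18, -0.40, 1.04, 1.22 and 0.00. Without the second niche shSox9 library Ccl6 (1.43, edgeR adjusted p = 0.019) and Ccl9 (1.70, edgeR adjusted p = 0.012) were called higher. Without the first Ccl6 was at 0.11 (edgeR adjusted p = 0.82) and Ccl9 at -0.11 (edgeR adjusted p = 0.83). Ccl17 averaged out over unlike libraries, since 1 niche shSox9 library was at 92.5 TPM and the other two were at 2.89 and 4.69 TPM, against 16.3 to 29.8 TPM in distal libraries. Without the first niche shSox9 library its log2 fold change was -3.04 (edgeR adjusted p = 4.0e-04), and Ccl4 was then called lower too (-1.23, edgeR adjusted p = 0.012). Macrophage markers showed no rise in this comparison, with 0 of 15 higher and 3 lower and sums without Lyz2 of 199.98 to 1230.4 TPM in niche shSox9 libraries, against 252 to 404 TPM in distal libraries. Fibroblast markers did, with 5 of 8 higher and none lower and sums of 3566 to 5350 TPM in niche shSox9 libraries, against 859 to 1101 TPM in distal libraries. Il6 rose (log2 fold change 2.04, SE 0.22, edgeR adjusted p = 2.7e-05), as did Tnfaip3 (1.91, SE 0.11, edgeR adjusted p = 8.2e-07). The part of any of these cells or genes in the levels of Ccl2, Ccl7 and Ccl8 was not tested.

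4T1 cells from lung and the niche epithelium around them carried different amounts of every one of these chemokines but Ccl20. Of the 10 genes 9 were called lower in 4T1 cells in vivo and none higher, where edgeR called 64.8% of all 18242 genes tested, 28.9% higher and 36.0% lower. Ccl2 was nearest between them, at 367 to 399 TPM in 4T1 cells in vivo, against 879 to 1245 TPM in niche libraries (log2 fold change -1.44, SE 0.20, edgeR adjusted p = 1.5e-05). Ccl5 was next, at 76.0 to 159 TPM in 4T1 cells in vivo, against 271 to 502 TPM in niche libraries (log2 fold change -1.68, SE 0.34, edgeR adjusted p = 4.5e-04). The other calls ran from -2.91 for Ccl6 through -4.43 for Ccl7 to -7.94 for Ccl8. Without the third in vivo library Ccl6 was at -4.40, Ccl4 at -6.32 instead of -5.11, Ccl9 at -5.63 instead of -4.46 and Ccl8 at -9.55. Ccl20 overlapped between these groups (log2 fold change -1.99, SE 0.95, edgeR adjusted p = 0.078). It was called lower without the second in vivo library (-4.29, edgeR adjusted p = 0.011) and without the second niche library (-2.41, edgeR adjusted p = 0.047). Macrophage markers were lower in 4T1 cells in vivo for 15 of 15 and fibroblast markers for 8 of 8, and their part was not tested.

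The genes with the most similar pattern to each member were sought among 12496 genes by the Pearson correlation of log2(CPM + 1) over the 15 libraries. These values describe likeness only, and the libraries share groups, depth and cell mixture. Ccl2 was most like Ecscr (r = 0.969) and Ttyh2 (0.967), and Ccl7 most like Tvp23a (0.985) and Gnb4 (0.982). Ccl8 was most like the lysosomal protease gene Ctsa (0.991), Ccl4 most like the phagocyte oxidase subunits Ncf1 (0.998) and Ncf4 (0.996), and Ccl3 most like Cd72 (0.995). Ccl6 was most like the fungal pattern receptor Clec7a (0.991) and the protease Ctss (0.986), Ccl9 most like the myeloid receptors Trem2 (0.991) and Clec5a (0.984), and Ccl17 most like Ptpro (0.982). Ccl5 had the lowest best match, N4bp1 (0.948), and Ccl20 was too rare to be included.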

How the data were processed

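The strand setting of the counting is not stated in the labels. The authors deposited 1 RSEM table per library, made against GRCm38 per the submitters' processing notes, which also name DESeq2 and no versions. The deposited expected counts are estimates per gene, and the authors' TPM values are scaled for length to the same total in each library. FPKM was not used. Symbols and coordinates are from GENCODE mouse release M21 (99.95% of identifiers matched), promoters from RefSeq GRCm38.p6.

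Rounded expected counts entered edgeR 4.0.16 (TMM, quasi-likelihood F-test, filterByExpr, Benjamini-Hochberg over all genes, threshold 0.05) in R 4.3.3. The 6 libraries of 4T1 cells, the 9 epithelial libraries and, for 4T1 against niche, all 15 were fitted apart. The tests were checked on simulated counts. DESeq2 1.42.0, limma 3.58.1 on log2(TPM + 1) and log2(TPM + 0.1), other scaling, filter, library sets, the replicate block and leaving out each library were alternatives. Members and lists were chosen with earlier results of these data known. All 10 members are named, with up to 4 genes per other list (adjusted p below 0.05, at least 5 CPM, largest changes first), a choice narrowed in the text, where some items are not reported, and the 2 most correlated genes per member. Pairs of replicates had a chi-square per degree of freedom of 8.27 to 43.4, above sampling noise, and each library was 1 sample. For 4T1 cells no label names separate cultures or animals, and their p-values may reflect technical spread only. A count of 0 allows up to 3 counts, and intervals and floors cover counting error only.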

Additional observations from a re-analysis of the deposited data

How the results depend on the processing

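For the 5 comparisons and the 10 chemokines, 539 of the values under alternatives kept their direction and side of the threshold, 33 gained a call, 13 lost one and 18 changed sign. In 4T1 cells in vivo against in vitro, 9 members were called higher with no filter on low counts, and leaving out a library gave 5 to 8 higher and 0 to 1 lower. In niche against distal, 1 was called lower with no filter and with only the 6 libraries. In niche shSox9 against distal, 5 were called higher with no filter, 1 was called lower by limma with either pseudocount, and leaving out a library gave 3 to 5 higher and 0 to 3 lower. In niche shSox9 against niche, 5 to 8 were lower and 2238 to 4224 of all genes were called without 1 library, the fewest without the first niche library, against 3616. Log2 fold changes that changed sign were all near 0 or rested on the first niche shSox9 library. Against distal, Ccl17 (0.00) was -0.0246 by DESeq2, -0.0227 by RLE scaling, -0.75 and -0.90 by limma, and -3.04 to 0.55 without 1 library. Ccl3 (-0.18) was 0.18 by limma with either pseudocount and -0.79 to 0.22 without 1 library, and Ccl9 (1.22) was -0.11 to 1.70. Against niche, Ccl2 (0.07) was -0.0287 by limma with either pseudocount and -0.0331 to 0.26 without 1 library. The cause was not tested.

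No label states that replicate numbers pair the libraries, and the main fits did not pair them. The titles carry the letters A to C, except that 1 distal library is titled R1 and was taken here as replicate 1. The replicate block in the distal comparisons rests on that numbering. Same-numbered niche shSox9 and niche libraries had correlated deviations of 0.129, 0.091 and 0.102, and each correlated best with its own number, which is a hint from the data only. With the replicate block 8 members were lower there, with Ccl9 at -1.86 and Ccl17 at -2.84, 9 were higher in niche against distal, where Ccl17 was then called, 6 in 4T1 in vivo against in vitro, where Ccl9 was then called, and Ccl17 was -0.77 in niche shSox9 against distal. Where leaving out a library left 2 in a group, the spread was pooled. Genes at a few counts, Ccl20 throughout and Ccl3, Ccl8, Ccl9 and Ccl17 in 4T1 cells, are limited by depth.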
